A study of Rattus norvegicus with 9 samples.

Results

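The 9 genes described here encode subunits of the NADPH oxidases, which make superoxide, and the enzymes that clear superoxide and hydrogen peroxide. They were Cybb, Cyba, Ncf1, Ncf4, Rac2, Nox4, Sod1, Sod2 and Cat. Each was found by its name among the 30315 loci of the deposited table. Every name matched 1 locus, and all 9 were among the 14338 tested loci, those that averaged 1 FPKM or more over the 9 libraries (FPKM counts fragments relative to transcript length and to all mapped fragments). Renal outer medulla, the zone of the kidney between cortex and inner medulla, was taken from 9 MCW SS rats, a salt-sensitive strain, with 1 rat per library and 3 rats in each of 3 groups. All 9 rats had the same surgical preparation. The rats labelled 0.4% salt ate a diet with 0.4% NaCl and were sampled at the point where treatment and the high-salt diet would have begun, so no group ate 0.4% NaCl through the same 7 days. The HS_SCR label marks rats given a scrambled GapmeR (GapmeRs are antisense oligonucleotides that lead to RNA cleavage, and a scrambled one has no intended target) by the intra-renal route, dosed at 4 mg/kg, and ate a 4% NaCl diet for 7 days. Rats labelled HS_DT received GapmeRs against Dnmt3a and Tet3, 2 mg/kg of each, and the same 7 days of 4% NaCl. Dnmt3a is a DNA methyltransferase and Tet3 starts the removal of methyl groups from cytosine. HS_SCR minus 0.4% salt therefore holds diet, scrambled GapmeR and elapsed days together, and HS_DT minus HS_SCR holds the targeting of the 2 genes on the same diet. The study's title concerns DNA methylation and demethylation in the kidney in salt-induced hypertension.

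The NADPH oxidase of phagocytes has a membrane core of gp91phox (from Cybb) and p22phox (from Cyba). The core becomes active when cytosolic proteins, among them p47phox (Ncf1) and p40phox (Ncf4), and the small GTPase Rac2 join it, and it then passes electrons from NADPH to oxygen. Nox4 is a different catalytic subunit that is known from kidney tubules, pairs with p22phox, needs none of those cytosolic proteins and releases mainly hydrogen peroxide. Sod1 in the cytosol and Sod2 in mitochondria turn superoxide into hydrogen peroxide, which catalase (Cat), an enzyme of peroxisomes, breaks down. In the renal medulla, superoxide is known to affect blood flow and salt handling, and oxidase subunits have been studied in salt-sensitive rats for that reason.

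RefSeq sequences upstream of the transcription start (assembly GRCr8) matched 7 of the 9 genes. Ncf4 and Rac2 had no entry. Of the 7, 4 are printed, each 250 bases up to the start and 5′ to 3′ on the gene's strand, those of Cybb, Cyba and Ncf1 because they are the phagocyte oxidase genes with an entry, and that of Cat because it was the one gene of the 9 whose HS_SCR libraries were all below 0.4% salt. Capitals mark matches on either strand to GAGGAA (the core bound by the myeloid factor PU.1), GGGCGG (the GC box), CCAAT and TATAAA. The regions are chrX:16065066-16065315 (minus strand) for Cybb, chr19:67404215-67404464 (minus strand) for Cyba, chr12:28121635-28121884 (plus strand) for Ncf1 and chr3:110329527-110329776 (minus strand) for Cat.
Cybb: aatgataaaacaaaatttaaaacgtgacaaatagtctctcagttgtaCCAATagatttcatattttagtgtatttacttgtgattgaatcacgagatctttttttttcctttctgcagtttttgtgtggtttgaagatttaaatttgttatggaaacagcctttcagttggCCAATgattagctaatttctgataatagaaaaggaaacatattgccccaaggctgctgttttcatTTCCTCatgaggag
Cyba: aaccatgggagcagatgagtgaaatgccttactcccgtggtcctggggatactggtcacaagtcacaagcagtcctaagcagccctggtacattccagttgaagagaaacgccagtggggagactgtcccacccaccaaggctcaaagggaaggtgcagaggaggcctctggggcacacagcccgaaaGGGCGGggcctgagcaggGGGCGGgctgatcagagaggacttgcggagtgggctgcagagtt
Ncf1: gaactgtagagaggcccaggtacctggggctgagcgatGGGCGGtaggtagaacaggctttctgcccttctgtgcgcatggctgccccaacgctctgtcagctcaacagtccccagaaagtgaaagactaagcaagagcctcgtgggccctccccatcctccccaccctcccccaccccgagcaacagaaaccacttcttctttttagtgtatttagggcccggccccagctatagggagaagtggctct
Cat: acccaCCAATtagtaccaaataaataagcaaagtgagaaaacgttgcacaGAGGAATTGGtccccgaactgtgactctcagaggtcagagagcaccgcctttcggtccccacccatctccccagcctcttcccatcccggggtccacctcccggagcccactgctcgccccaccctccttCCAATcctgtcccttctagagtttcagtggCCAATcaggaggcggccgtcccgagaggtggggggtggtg
GAGGAA occurred in 2 of the 7 regions, in Cybb from 14 bases before the start on the opposite strand and in Cat from 200 bases before it, against 23.3% of all 33469 regions of this length. In Cat it shares a base with a CCAAT match. GGGCGG occurred in 5 of the 7 (Cyba, Ncf1, Nox4, Sod1 and Sod2), against 30.5% of all regions. CCAAT occurred in 3 (Cybb, Sod1 and Cat), against 34.0%, and TATAAA in 1 (Sod1), against 12.9%. The Cybb region had a GC content of 32.0%, the lowest of the 7, and that of Nox4 the highest at 72.8%, against a median of 51.2% over all regions. These matches describe letters in a window, not binding.

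Across the series, HS_SCR replicate 3 stood apart. Mitochondrially encoded loci made up 20.6% of its summed FPKM against 25.4% to 31.9% in the other 8 libraries, and Cd163, a scavenger receptor of macrophages, was at 64.9 FPKM there against 0.989 FPKM or less in the others. Hmox1, the inducible heme oxygenase, was at 119 FPKM there and at 20.8 to 32.1 FPKM in the others (both genes are named after their values were seen). The lowest Spearman correlation between libraries of HS_SCR was 0.931, of replicates 1 and 3, against 0.968 or more within the other groups. The number of reads per library is not given in the sources used here. The relative depth, read from low loci, ran from 0.768 to 1.36 of that of 0.4% salt replicate 1. Rat numbers form a lower series (781 to 785, 4 rats) and a higher series (859 to 871, 5 rats) that the labels do not explain. All 0.4% salt rats, HS_SCR replicate 3 and HS_DT replicate 3 are of the higher series, so series and diet partly go together. Slc12a1, the sodium transporter of the thick ascending limb, and Aqp2, the water channel of the collecting duct, were at 451 FPKM and 342 FPKM or more in every library. Dnmt3a and Tet3 did not have their lowest level in the libraries labelled HS_DT. Dnmt3a was at 7.05, 5.75 and 10.3 FPKM in HS_SCR and at 8.72, 10.3 and 11.02 FPKM in HS_DT, and Tet3 at 5.04, 5.47 and 8.20 FPKM in HS_SCR and at 7.62, 8.54 and 7.92 FPKM in HS_DT. In 0.4% salt Dnmt3a was at 13.4, 12.2 and 12.9 FPKM and Tet3 at 9.38, 8.47 and 9.64 FPKM. Both were lower in every HS_SCR library than in every 0.4% salt library. Neither gene passed the test between HS_DT and HS_SCR. A direction for HS_DT below is therefore that of the libraries labelled so, not of a measured loss of the 2 transcripts.

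By level, Sod1 was the highest of the 9 genes and Nox4 the lowest in all 3 groups. Because FPKM is per length, these levels can be set beside each other, with less certainty for Cyba and Rac2. The table's locus spans 70.2 kb for Cyba against 8.07 kb in RefSeq, and 13.2 kb for Rac2 against 27.4 kb. Over the 9 libraries Sod1 averaged 416 FPKM, percentile 98.5 among the loci tested. Cyba at 125 FPKM and Sod2 at 124 FPKM followed, then Cat at 81.8 FPKM, Rac2 at 65.7 FPKM, Cybb at 65.6 FPKM, Ncf1 at 25.7 FPKM and Ncf4 at 13.9 FPKM. Nox4 averaged 1.505 FPKM, percentile 6.53. In 0.4% salt the order was Sod1, Sod2, Cat, Cyba, Cybb, Rac2, Ncf1, Ncf4 and Nox4, and the neighbours whose FPKM ranges overlapped were Sod2 with Cat and Cat with Cyba. In HS_SCR and in HS_DT Cyba came second, and its range overlapped that of Sod2. Rac2, Cybb and Cat overlapped along the middle of the order in both high-salt groups.

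**Figure D1:**
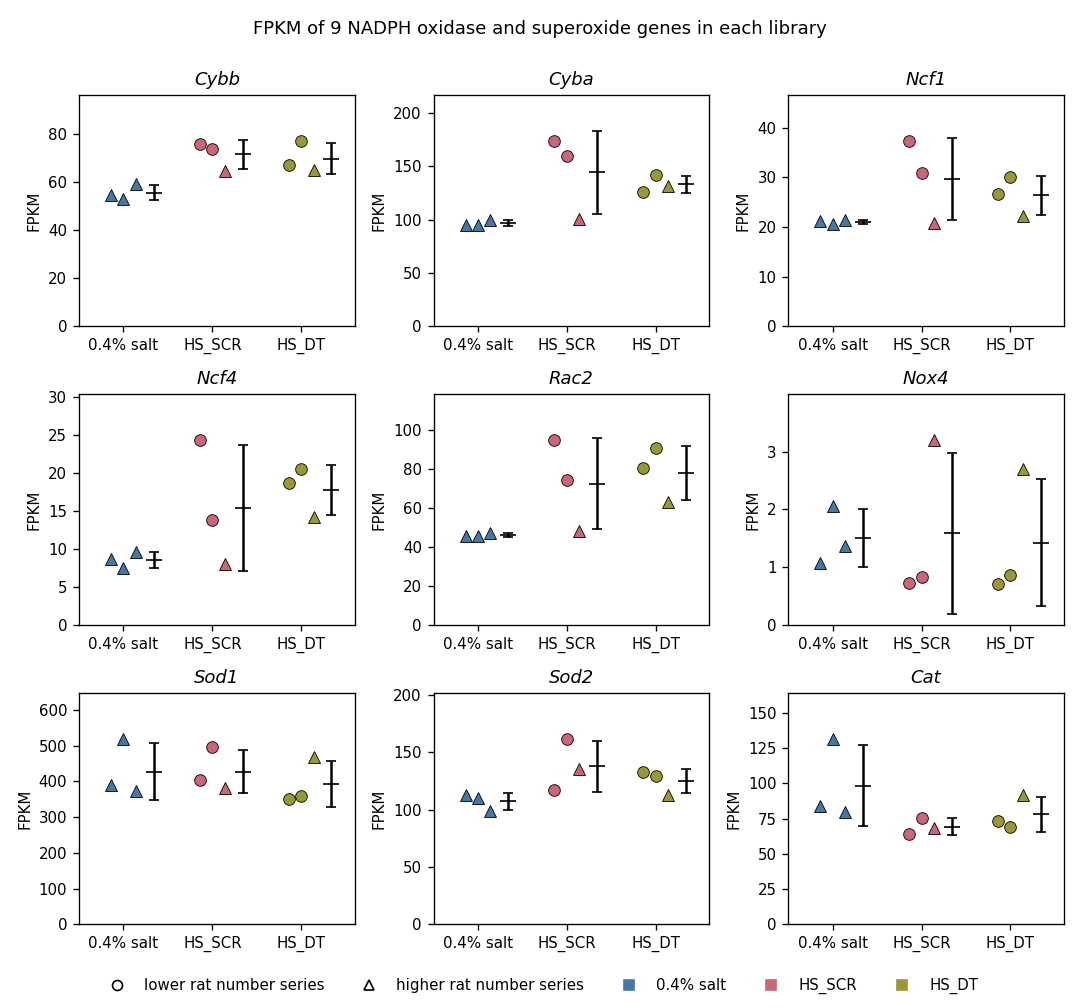
FPKM (vertical axis, linear from 0, own scale per gene) of the 9 genes in each library by group (horizontal axis). Circles are rats of the lower number series and triangles rats of the higher series; bars are mean ± SD, n = 3. Cyba, Ncf1, Ncf4 and Rac2 in HS_SCR replicate 3 sit at the level of the 0.4% salt libraries, while Nox4 is highest there.

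From 0.4% salt to HS_SCR, 1 of the 9 genes passed the test, the membrane subunit Cybb, which rose. In that comparison 13.1% of all tested loci were called at an adjusted p under 0.05 (limma, Benjamini-Hochberg over the tested loci), so 1 of 9 is near the background. The loci called higher alone made up 8.2%. At an unadjusted p under 0.05 there were 5 of the 9, against 32% of all loci. FPKM ranges did not overlap in 5 genes, with Cybb, Cyba, Rac2 and Sod2 higher and Cat lower in HS_SCR, where ranges were apart in 33.5% of all loci (19.1% higher, 14.5% lower). The median log2 change of the 9 genes was 0.36, against 0.02 over all loci tested. Log2 changes are differences of log2(FPKM + 1).

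Cybb encodes gp91phox, the electron-carrying subunit, and lies on rn5 chromosome X, 15359335 to 15393859. Its level was 54.5, 53.1 and 59.1 FPKM in 0.4% salt, 76.1, 73.9 and 64.6 FPKM in HS_SCR and 67.1, 77.0 and 65.2 FPKM in HS_DT. All 6 high-salt libraries were above all 3 of 0.4% salt, and the ranges of the high-salt groups overlapped. In HS_SCR Cybb rose 1.29-fold over 0.4% salt by the means, from 55.5 ± 3.13 to 71.5 ± 6.07 FPKM (SD, n = 3), a log2 change of 0.36 ± 0.10 (SE; limma adjusted p = 0.0454; by exact permutation p = 0.1, which is the floor for 3 libraries against 3). This call ended when any 1 library other than HS_SCR replicate 3 was left out (limma adjusted p from 0.0570 to 0.153). A factor for the rat number series brought the log2 change to 0.24, which was not called (limma adjusted p = 0.149). The size of the change depends on how libraries are scaled, since rescaling to an equal sum without mitochondrially encoded loci brought the median of all loci from 0.02 to -0.21 and left Cybb at 0.10 (limma adjusted p = 0.453).

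Cyba encodes p22phox, the partner of gp91phox and of Nox4 (rn5 chromosome 19, 65908086 to 65978333). Its level was 94.96, 94.8 and 100.1 FPKM in 0.4% salt, 173.7, 159.7 and 100.2 FPKM in HS_SCR and 125.8, 142.0 and 131.2 FPKM in HS_DT. The 0.4% salt libraries lay within 6 FPKM of each other, and HS_SCR split into 2 libraries far above them and replicate 3 just above the highest. The log2 change from 0.4% salt to HS_SCR was 0.54 ± 0.18, short of the threshold (limma adjusted p = 0.0840; p = 0.1 by exact permutation). The table's locus for Cyba spans 70.2 kb, against 8.07 kb for the RefSeq gene, so fragments of a neighbouring transcript could be counted in it.

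Ncf1 encodes p47phox, the organiser that carries the cytosolic proteins to the membrane (rn5 chromosome 12, 27505765 to 27514990). It stood at 21.1, 20.6 and 21.4 FPKM in 0.4% salt, at 37.3, 31.0 and 20.8 FPKM in HS_SCR and at 26.7, 30.1 and 22.3 FPKM in HS_DT. HS_SCR replicate 3 fell inside the 0.4% salt range, so those groups overlapped, while all HS_DT libraries were above 0.4% salt. The log2 change to HS_SCR was 0.44 ± 0.19 (limma adjusted p = 0.159; exact permutation p = 0.3).

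Ncf4 encodes p40phox, which binds phosphoinositides of the phagosome (rn5 chromosome 7, 119469964 to 119490871). Its level was 8.65, 7.55 and 9.58 FPKM in 0.4% salt, 24.3, 13.9 and 8.01 FPKM in HS_SCR and 18.7, 20.6 and 14.2 FPKM in HS_DT. Among Cybb, Cyba, Ncf1, Ncf4 and Rac2 it varied most between the HS_SCR libraries, with a coefficient of variation of 53.6%, and its HS_SCR range included that of 0.4% salt in part. The log2 change to HS_SCR was 0.65 ± 0.32 (limma adjusted p = 0.1999; exact permutation p = 0.3).

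Rac2, the Rac GTPase of blood cells, lies near Ncf4 on rn5 chromosome 7, 119772954 to 119786171. It stood at 45.8, 45.8 and 47.4 FPKM in 0.4% salt, at 94.8, 74.4 and 48.3 FPKM in HS_SCR and at 80.5, 90.7 and 63.3 FPKM in HS_DT. All 6 high-salt libraries were above 0.4% salt, HS_SCR replicate 3 by the least. The log2 change to HS_SCR was 0.58 ± 0.23 (limma adjusted p = 0.117; exact permutation p = 0.1). The locus spans 13.2 kb in the table against 27.4 kb for the RefSeq gene, so its value may cover part of the transcripts.

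Among the 3 rats of each group, Cyba, Ncf1 and Rac2 varied least in 0.4% salt and most in HS_SCR. In 0.4% salt the coefficient of variation over 3 rats was 3.13% for Cyba, 1.89% for Ncf1 and 2.06% for Rac2. In HS_SCR it was 27.0%, 28.0% and 32.2%, and in HS_DT 6.17%, 14.9% and 17.7%. For Cybb it was 5.64% in 0.4% salt, 8.48% in HS_SCR and 9.09% in HS_DT. Ncf4, Nox4 and Sod2 also varied least in 0.4% salt and most in HS_SCR. Sod1 (18.5%, 14.2% and 16.7% in the same order of groups) and Cat (29.2%, 8.73% and 15.8%) varied most in 0.4% salt. The coefficient of variation over all loci was not computed. The 0.4% salt rats are all of the higher number series, while HS_SCR and HS_DT each hold rats of both series. A spread that goes with the group therefore cannot be told apart from a gap between the series. No test of this spread was run. The ratio of Cyba to Cybb was 1.74, 1.79 and 1.69 before the diet, and 2.28, 2.16 and 1.55 in HS_SCR rats against 1.87, 1.84 and 2.01 in HS_DT rats, so its highest and its lowest value were both in HS_SCR. Ncf4 per Ncf1 was 0.41 ± 0.04 in 0.4% salt, 0.50 ± 0.14 in HS_SCR and 0.67 ± 0.03 in HS_DT (SD, n = 3). Its 3 HS_DT values, 0.701, 0.682 and 0.637, were above the 0.4% salt values of 0.409, 0.366 and 0.447, and HS_SCR replicate 1 at 0.653 reached the HS_DT range.

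Several of these values depended on whether HS_SCR replicate 3, the only HS_SCR rat of the higher number series, was included. Without it, 5 of the 9 genes rose in HS_SCR against 0.4% salt, where 36.2% of all loci were called (20.5% higher). They were Cybb at 0.43 (limma adjusted p = 0.00925), Cyba at 0.78 (0.00146), Ncf1 at 0.67 (0.00790), Ncf4 at 1.02 (0.0147) and Rac2 at 0.84 (0.00686). That fit sets HS_SCR rats of the lower number series alone against 0.4% salt rats of the higher series alone, so in it the diet group cannot be told apart from the series. Within the higher series, HS_SCR replicate 3 against the 3 rats of 0.4% salt gave 0.22 for Cybb, 0.05 for Cyba, -0.02 for Ncf1, -0.08 for Ncf4 and 0.06 for Rac2, with the lone library assumed to vary like the others. With a single HS_SCR library in that fit, only the sizes of the changes are given here. With the series as a factor over all 9 libraries, the changes were 0.29 for Cyba, 0.10 for Ncf1, 0.14 for Ncf4 and 0.18 for Rac2, and 0 of the 9 genes passed, where 9.2% of all loci were called. No 0.4% salt rat is of the lower series, so the comparison could not be made within it.

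**Figure D2:**
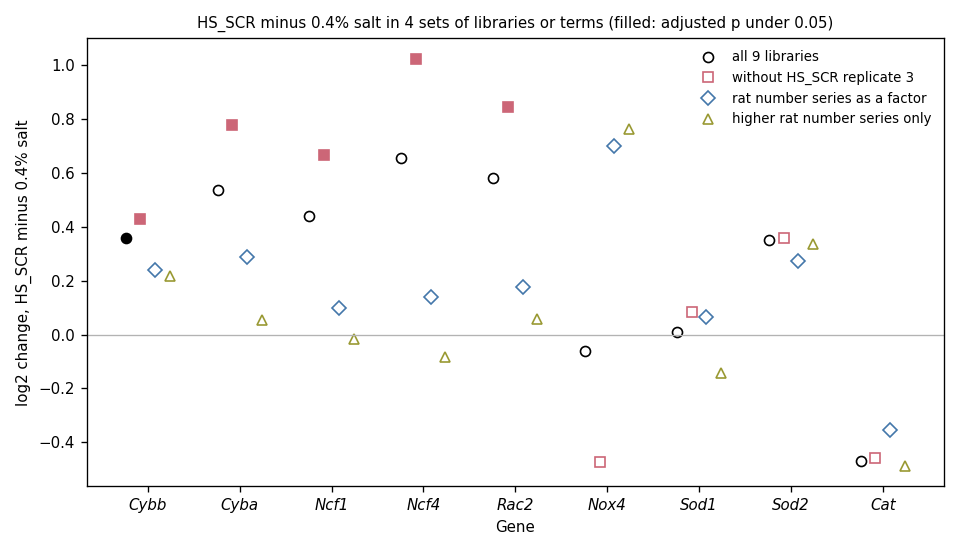
Log2 change from 0.4% salt to HS_SCR (vertical axis) of the 9 genes (horizontal axis) in 4 sets of libraries or terms; filled symbols have a limma adjusted p under 0.05. For Cyba, Ncf1, Ncf4 and Rac2 the change is largest without HS_SCR replicate 3 and near 0 within the higher rat number series.

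Nox4, the oxidase known from tubules, had another pattern over the libraries (rn5 chromosome 1, 157106512 to 157286284). It stood at 1.08, 2.06 and 1.37 FPKM in 0.4% salt, at 0.733, 0.828 and 3.20 FPKM in HS_SCR and at 0.710, 0.874 and 2.69 FPKM in HS_DT. The 4 rats of the lower number series were at 0.874 FPKM or below and the 5 of the higher series at 1.08 FPKM or above. The share of all loci that split by series in this way was not computed, and these levels lie near the filter of 1 FPKM. Over all libraries the log2 change to HS_SCR was -0.06 ± 0.40 (95% interval -0.97 to 0.85; limma adjusted p = 0.933; exact permutation p = 1.0). With the series as a factor it was 0.70 (limma adjusted p = 0.0687), short of the threshold. Within the higher series it was 0.76, a size that rests on HS_SCR replicate 3 as the only HS_SCR library there. Over all libraries the interval holds changes of up to nearly 1 on the log2 scale in either direction, so a change smaller than that was not detectable in this fit.

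Sod1, the copper-zinc superoxide dismutase (rn5 chromosome 11, 33982763 to 33988340), was at 390.3, 518 and 374 FPKM in 0.4% salt, at 403, 497 and 383 FPKM in HS_SCR and at 350.4, 359 and 468 FPKM in HS_DT. The groups overlapped throughout, and the log2 change to HS_SCR was 0.01 ± 0.17 (95% interval -0.38 to 0.40; limma adjusted p = 0.979). Sod2, the manganese enzyme of mitochondria (rn5 chromosome 1, 51827169 to 51835190), was at 113, 111 and 98.9 FPKM in 0.4% salt, at 117, 162 and 136 FPKM in HS_SCR and at 133, 129.7 and 113 FPKM in HS_DT. All 6 high-salt libraries were above 0.4% salt, the lowest by less than 1 FPKM. The log2 change of Sod2 to HS_SCR was 0.35 ± 0.13 (limma adjusted p = 0.0973; exact permutation p = 0.1), and it passed without HS_SCR replicate 1 (0.46, limma adjusted p = 0.0458). Within the higher rat number series, with 1 HS_SCR library, it was 0.34. Sod1 per Sod2 averaged 3.98 ± 0.64 in 0.4% salt, 3.11 ± 0.31 in HS_SCR and 3.18 ± 0.83 in HS_DT (SD, n = 3).

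Cat, which encodes catalase (rn5 chromosome 3, 100021853 to 100054054), was the member with the lowest change in HS_SCR. Its level was 83.8, 131 and 79.7 FPKM in 0.4% salt, 63.7, 75.6 and 68.0 FPKM in HS_SCR and 73.1, 68.8 and 91.9 FPKM in HS_DT. All 3 HS_SCR libraries were below all 3 of 0.4% salt, and HS_DT overlapped both. The log2 change to HS_SCR was -0.47 ± 0.19, short of the threshold (limma adjusted p = 0.136; p = 0.1 by exact permutation). Within the higher series, with 1 HS_SCR library, it was -0.49. Rescaled without mitochondrially encoded loci, Cat was the only 1 of the 9 genes called, at -0.73 (limma adjusted p = 0.0291), in a fit that called 23% of all loci, 392 loci higher and 2912 lower, against 1175 and 699 with the values as deposited.

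**Figure D3:**
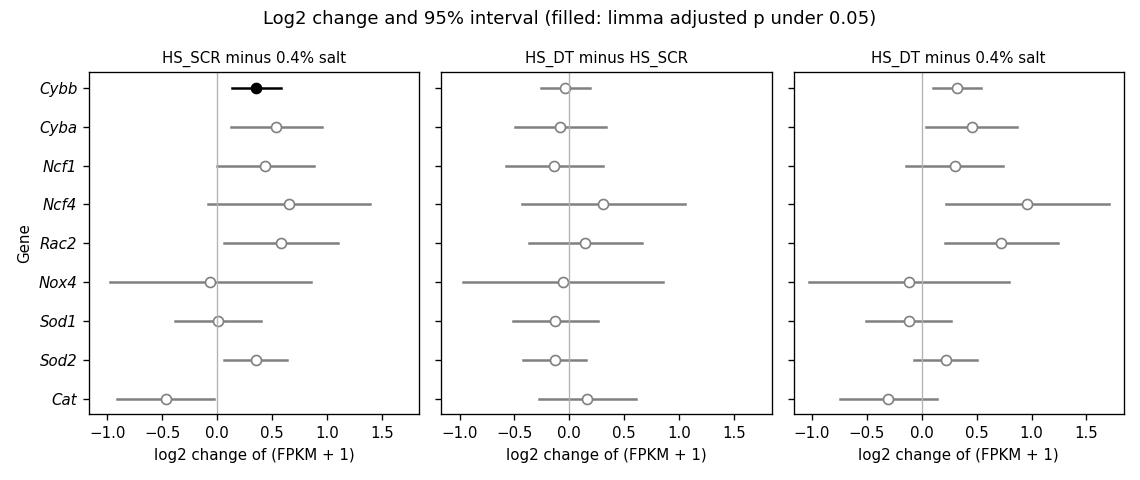
Log2 change of log2(FPKM + 1) with its 95% interval (horizontal axis) for the 9 genes (vertical axis) in 3 comparisons; filled points have a limma adjusted p under 0.05. Cybb in HS_SCR minus 0.4% salt is the filled point, and every interval in HS_DT minus HS_SCR includes 0.

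Between HS_DT and HS_SCR no member passed the test, and their changes ran from -0.14 for Ncf1 to 0.31 for Ncf4. Limma called 0.00697% of all loci here, a single locus, the tight junction gene Cldn7, at -0.84 (limma adjusted p = 0.0307; it is no member and is named after its value was seen). At an unadjusted p under 0.05 there were 0 of the 9 genes and 19.1% of all loci. FPKM ranges were apart in none of the 9, against 21.6% of all loci. For Cybb the change was -0.04 ± 0.10 (95% interval -0.26 to 0.19), which leaves out a change of a size like the 0.36 of Cybb from 0.4% salt to HS_SCR. For Cyba it was -0.08 ± 0.18 (-0.50 to 0.33), for Rac2 0.14 ± 0.23 (-0.37 to 0.66), for Sod2 -0.13 ± 0.13 (-0.42 to 0.16) and for Cat 0.16 ± 0.19 (-0.28 to 0.60). The interval of Rac2 holds a further rise as large as its 0.58 from 0.4% salt to HS_SCR, but not a fall of that size. Those of Sod2 and Cat hold a full reversal of their changes of 0.35 and -0.47. These comparisons therefore do not show that the groups were alike. Without HS_SCR replicate 3, Cyba was lower in HS_DT than in HS_SCR, at -0.32 (limma adjusted p = 0.0287), where 16% of all loci were called. Within the lower number series, 2 rats against 2, Cyba stood at -0.32 (limma adjusted p = 0.161). There 0 of the 9 genes passed, where 1 of all loci was called. The higher series holds 1 library of each group, so no test is given: Cyba was at 131.2 FPKM in HS_DT replicate 3 and at 100.2 FPKM in HS_SCR replicate 3.

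From 0.4% salt to HS_DT limma called no member and no locus at all, so percent called is 0. At an unadjusted p under 0.05 there were 4 of the 9 genes (Cybb, Cyba, Ncf4 and Rac2) and 7.49% of all loci. FPKM ranges were apart in 6 of the 9, all higher in HS_DT (Cybb, Cyba, Ncf1, Ncf4, Rac2 and Sod2), against 23.8% of all loci, made up of 14.2% that were higher and 9.64% that were lower. The largest changes were Ncf4 at 0.96 ± 0.32 (2.07-fold by the means; limma adjusted p = 0.515) and Rac2 at 0.73 ± 0.23 (1.69-fold; limma adjusted p = 0.477). Cyba stood at 0.46 ± 0.18 (limma adjusted p = 0.611) and Cybb at 0.32 ± 0.10 (limma adjusted p = 0.474). Within the higher number series, HS_DT replicate 3 against 0.4% salt gave 0.67 for Ncf4, 0.44 for Rac2, 0.44 for Cyba and 0.23 for Cybb. These are sizes from a single HS_DT library, and no test of them is given here. The comparison shares its 0.4% salt libraries with HS_SCR minus 0.4% salt. The F test over the 3 groups called 0 of the 9 genes and 5.61% of all loci.

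The other genes of the oxidase were taken from a list of 16 names, of which 15 were in the table and 8 were tested. From 0.4% salt to HS_SCR 1 of the 8 rose and 1 fell, where 13.1% of all loci were called, and the median change was 0.28. Rac1, the Rac GTPase of most cells, rose by 0.28 ± 0.07 (limma adjusted p = 0.0343), from 142, 136 and 134 FPKM to 171, 162 and 168 FPKM. Poldip2, a protein that binds p22phox and raises Nox4 activity, fell by 0.27 on the log2 scale (SE 0.08; limma adjusted p = 0.0497). Rac1, unlike Rac2, was as high in HS_SCR replicate 3 as in the other HS_SCR libraries, and Rac2 per Rac1 was 0.556, 0.460 and 0.287 in HS_SCR against 0.324, 0.336 and 0.355 in 0.4% salt. Rescaled without mitochondrially encoded loci, Rac1 stood at 0.02 (limma adjusted p = 0.886), and with the number series as a factor at 0.26 (limma adjusted p = 0.0848). Nox3 was listed at 0 in all 9 libraries, and the remaining 6, Noxo1, Noxa1 and the Duox and Duoxa genes, averaged under 1 FPKM. None of the 8 was called in HS_DT minus HS_SCR, where Rap1a (-0.24, limma adjusted p = 0.197) and Prkcb (0.40, limma adjusted p = 0.376) had the smallest unadjusted p, or in HS_DT minus 0.4% salt, where they were Vav1 (0.53, limma adjusted p = 0.565) and Rac1 (0.18, limma adjusted p = 0.598).

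Of 21 further superoxide and peroxide genes, 19 were in the table and all 19 were tested. In HS_SCR against 0.4% salt 4 rose and 1 fell, where 13.1% of all loci were called (8.2% higher), and the median change was 0.25. Gpx1, the cytosolic glutathione peroxidase, rose from 347, 329 and 362 FPKM to 659, 645 and 479 FPKM, by 0.77 ± 0.13 (limma adjusted p = 0.0105). It also rose with the number series as a factor (0.65, limma adjusted p = 0.0347). Xdh, the xanthine dehydrogenase that can form superoxide, rose from 18.9, 23.9 and 25.9 FPKM to 34.8, 54.9 and 99.6 FPKM, by 1.31 ± 0.35 (limma adjusted p = 0.0424), and was highest in HS_SCR replicate 3. Prdx4, a peroxiredoxin of the endoplasmic reticulum, rose by 0.48 ± 0.11 (limma adjusted p = 0.0290), and thioredoxin, Txn1, the fifth called gene and outside the naming rule, by 0.46 ± 0.08 (limma adjusted p = 0.0112). Gclc, the catalytic subunit for glutathione synthesis, fell by 2.69 on the log2 scale (SE 0.53; limma adjusted p = 0.0170), from 244, 569 and 192 FPKM to 28.5, 93.5 and 34.8 FPKM. With the number series as a factor its call ended (-2.59, limma adjusted p = 0.0554), while Xdh, Prdx4 and Txn1 still passed. Sod3, the extracellular superoxide dismutase, was at 109, 227 and 109.6 FPKM in 0.4% salt and at 40.9, 107 and 45.0 FPKM in HS_SCR, a change of -1.25 ± 0.45 that did not pass (limma adjusted p = 0.0977; Sod3 is named for its role after its values were seen). Rescaled without mitochondrially encoded loci, 1 of the 19 rose and 3 fell, where 23% of all loci were called, and the median was -0.01. In HS_DT minus HS_SCR none was called, and Prdx4 (-0.39, limma adjusted p = 0.132) and Txn1 (-0.26, limma adjusted p = 0.1404) had the smallest unadjusted p. In HS_DT minus 0.4% salt these were Gpx1 (0.38, limma adjusted p = 0.515) and Txn1 (0.20, limma adjusted p = 0.599).

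Peroxisome genes were listed because catalase is a peroxisomal enzyme; all 17 were in the table and 15 were tested. From 0.4% salt to HS_SCR 1 rose and 2 fell, where 13.1% of all loci were called. Of the 15 changes 13 were negative, and the median was -0.27. Hao2, a peroxisomal hydroxyacid oxidase that yields hydrogen peroxide, fell by 2.80 on the log2 scale (SE 0.58; limma adjusted p = 0.0192), from 162, 406 and 183 FPKM to 19.5, 57.9 and 28.7 FPKM. Pecr, a peroxisomal enoyl-CoA reductase, rose by 0.45 ± 0.11 (limma adjusted p = 0.0365). With the series as a factor 0 of the 15 were called, and rescaled without mitochondrially encoded loci 10 fell and 0 rose, where 20.3% of all loci were called lower and the median of all loci was -0.21. In HS_DT minus HS_SCR none was called, the smallest unadjusted p being those of Pex14 (-0.41, limma adjusted p = 0.0735) and Pecr (-0.42, limma adjusted p = 0.112). In HS_DT minus 0.4% salt they were those of Hsd17b4 (-0.16, limma adjusted p = 0.713) and Ehhadh (-0.73, limma adjusted p = 0.714).

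**Figure D4:**
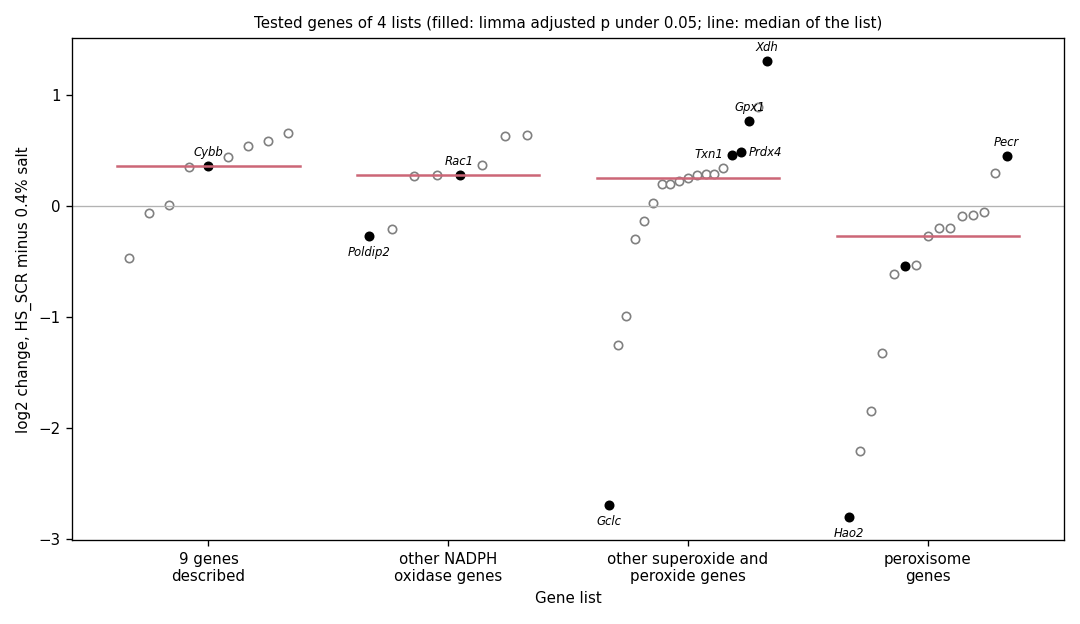
Log2 change from 0.4% salt to HS_SCR (vertical axis) of the tested genes of 4 lists (horizontal axis), ordered by change within a list; filled points have a limma adjusted p under 0.05 and the line is the list's median. The medians are 0.36 for the 9 genes, 0.28, 0.25 and -0.27 for the other lists in the order shown.

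Markers of several cell types moved with the same groups. In a bulk tissue, fewer cells of a type and less RNA per cell cannot be told apart. Of 14 macrophage markers in the table (of 16 named), all tested, 8 rose from 0.4% salt to HS_SCR, where 8.2% of all loci were called higher. Their summed level was 1871 to 2169 FPKM in 0.4% salt, 3152 to 4635 FPKM in HS_SCR and 3017 to 3566 FPKM in HS_DT, mostly from Lyz2 and Fcer1g, and no marker was at 0. HS_SCR replicate 3 had the lowest sum of its group at 3152 FPKM, the others being at 4635 and 4543 FPKM, and yet it was above 0.4% salt. Cybb as a percent of this sum was 2.59, 2.84 and 2.72 in 0.4% salt libraries, 1.64, 1.63 and 2.05 in HS_SCR libraries and 2.10, 2.16 and 2.16 in HS_DT libraries. Cyba as a percent of it was 4.52, 5.07 and 4.62 in 0.4% salt libraries, 3.75, 3.52 and 3.18 in HS_SCR libraries and 3.93, 3.98 and 4.35 in HS_DT libraries. For these genes the ratio to the sum was lower in all 6 high-salt libraries than in 0.4% salt. The same held for Ncf1, at 0.988 percent or more in 0.4% salt and 0.845 percent or less in the high-salt libraries. It also held for Sod1, Sod2 and Cat. The sum itself was higher in all 6, so any gene that was level or rose less than the sum has a lower ratio. The share of all loci with a lower ratio was not computed. Ncf4 went the other way in HS_DT, at 0.585, 0.576 and 0.470 percent against 0.412, 0.403 and 0.442 percent in 0.4% salt. The ratio depends on the marker: set against Csf1r, the receptor for a macrophage growth factor, Cybb had ratios of 0.724, 0.716 and 0.702 for 0.4% salt, of 0.650, 0.721 and 0.763 for HS_SCR and of 0.714, 0.801 and 0.684 for HS_DT, with all 3 ranges overlapping (Csf1r was chosen after its values were seen). Rac2 was at 2.18, 2.45 and 2.19 percent in 0.4% salt, at 2.05, 1.64 and 1.53 percent in HS_SCR and at 2.51, 2.54 and 2.10 percent in HS_DT, so for Rac2 the HS_DT range overlapped that of 0.4% salt. The part of these cells in the changes of the oxidase genes was not tested.

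Neutrophils also carry this oxidase. Of 10 neutrophil markers 3 were tested, and their list summed to 7.32 to 9.70 FPKM in 0.4% salt, 78.7 to 449 FPKM in HS_SCR and 29.5 to 63.9 FPKM in HS_DT, mostly from S100a9 and S100a8. Of the 3 tested, 2 rose from 0.4% salt to HS_SCR, where 8.2% of all loci were called higher. Csf3r was at 2.08 to 2.54 FPKM in 0.4% salt and at 2.67 to 6.07 FPKM in HS_SCR. Below the filter, Mmp8 was at 0.0392 to 0.177 FPKM in 0.4% salt and at 0.590 to 3.84 FPKM in HS_SCR. Cxcr2 was at 0.302 to 0.588 FPKM and at 0.704 to 1.51 FPKM in these groups. The granule genes Mpo, Elane, Camp and Ngp stayed under 1 FPKM in every library and were each at 0 in 1 to 3 of them. Lymphocyte markers summed to 84.1 to 89.7 FPKM in 0.4% salt, 75.8 to 126 FPKM in HS_SCR, with replicate 3 lowest, and 104 to 124 FPKM in HS_DT, mostly from Cd4 and Cd3g, with Cd79a at 0 in all libraries. The higher sums in HS_DT came mostly from Cd4, at 50.8 to 60.1 FPKM in 0.4% salt and 75.3 to 94.9 FPKM in HS_DT, a gene that rat macrophages express too. Cd8a was also higher in HS_DT, at 5.37 to 6.90 FPKM against 3.48 to 5.30 FPKM in 0.4% salt. So was Cd79b, at 1.54 to 2.28 FPKM against 0.884 to 1.27 FPKM. The T cell gene Cd3g was at 8.73 to 10.8 FPKM in 0.4% salt and at 6.20 to 7.30 FPKM in HS_DT. Of the 7 tested markers, 3 had HS_DT ranges above those of 0.4% salt and 1 below. Between these groups 4 of the 7 had a negative change (median -0.07). Lymphocytes express Rac2 and Cyba as well. Of 7 lymphocyte markers tested 1 rose from 0.4% salt to HS_SCR, which is near the 8.2% of all loci called higher.

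Proximal tubule markers summed to 1005, 2634 and 1148 FPKM in 0.4% salt, 111, 582 and 187 FPKM in HS_SCR and 411, 540.3 and 1758 FPKM in HS_DT, with Slc5a12 at 0 in 4 libraries. Of 13 tested, 5 fell and 0 rose from 0.4% salt to HS_SCR. Over all loci 13.1% were called in that comparison (8.2% higher), which is also the share to set beside the marker counts below. The proximal tubule is rich in peroxisomes, and the library with the highest level of Cat in each group was also the one with the highest sum of these markers: 0.4% salt replicate 2, HS_SCR replicate 2 and HS_DT replicate 3. Those same 3 libraries had the highest Sod1 of their groups. Over all 9 libraries, Pearson's r with the mean log2 value of the tested markers was 0.85 for Cat and 0.48 for Sod1. With the other marker lists, r of Cat ran from -0.74 (macrophage) to 0.58 (thick ascending limb). The r of all loci with these lists was not computed. Between groups Sod1 did not follow the proximal tubule sum. It was at 497 FPKM in HS_SCR replicate 2 (sum 582 FPKM) and at 390 FPKM in 0.4% salt replicate 1 (sum 1005 FPKM). The part of the tubule segment in the values of Cat and Sod1 was not tested. Of 12 thick ascending limb markers, led by Umod and Slc12a1, 1 rose and 4 fell in HS_SCR, and their sum was 2954 to 4575 FPKM in 0.4% salt and 1395 to 3367 FPKM in HS_SCR. Collecting duct markers, led by Aqp2 and Hsd11b2, had 0 of 8 called and endothelial markers, led by Plvap and Emcn, 2 of 8, both rising.

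**Figure D5:**
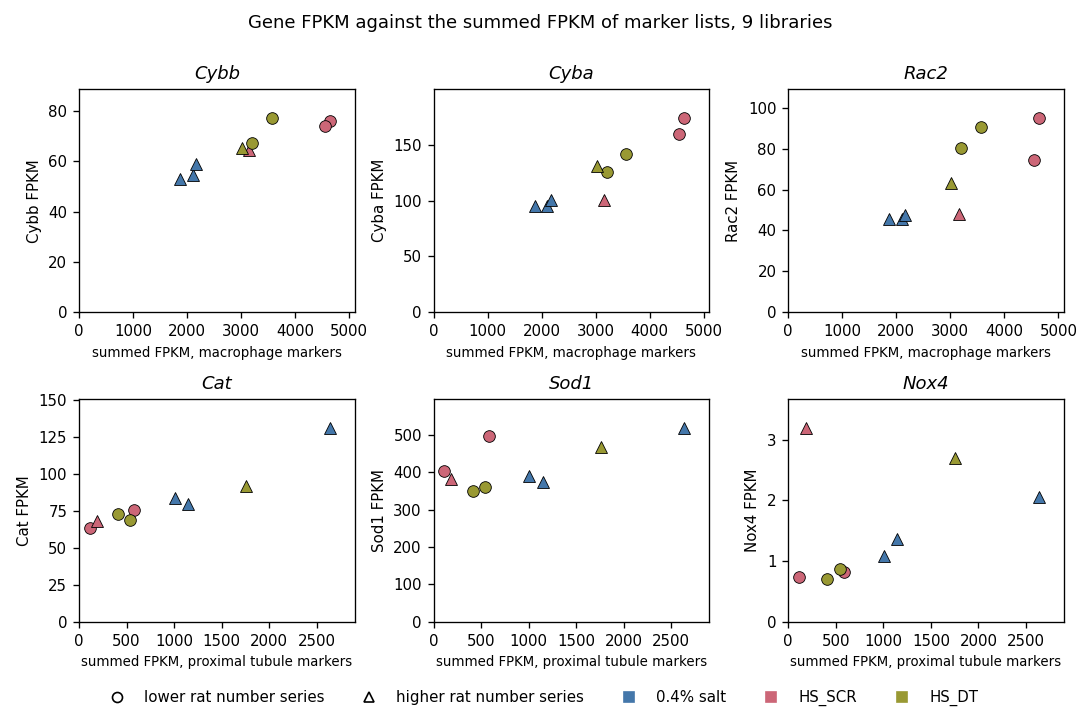
FPKM of 6 genes (vertical axes, from 0) against the summed FPKM of macrophage markers (top) or proximal tubule markers (bottom) in the 9 libraries. HS_SCR replicate 3 (pink triangle) has low Cyba and Rac2 for its macrophage sum of 3152 FPKM and high Nox4 for its proximal tubule sum of 187 FPKM.

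The loci whose levels followed each gene most closely over the 9 libraries were found by Pearson's r of log2(FPKM + 1). The search covered tested loci with a single gene name (12100), leaving out the 9 genes themselves. It is given as a description, since the highest r among so many loci over 9 libraries of 3 groups is high by selection. For Cybb they were Clec4a1 (r = 0.994) and Smap2 (0.9802), and for Cyba Il1rn (0.991) and Ms4a6a (0.990). Ncf1 was most like FAM49B (0.982) and Snx17 (0.981), and Ncf4 most like Cdhr1 (0.985) and BC017643 (0.981). Rac2 was most like BC017643 (0.998) and Fcgr3a (0.989), so BC017643, first for Rac2 and second for Ncf4, was named for both. Clec4a1, for example, ran from 26.1 to 56.0 FPKM and Fcgr3a from 21.8 to 91.5 FPKM. Nox4 was most like Nub1 (0.971) and Pygl (0.969), Sod1 most like D17Wsu92e (0.992) and Svip (0.951), and Sod2 most like Polr3c (0.945) and Denr (0.930). Cat was most like Gcdh (0.979) and Dhtkd1 (0.976).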

How the data were processed

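RNA-seq of renal outer medulla from 9 rats was read from 1 table. The deposited FPKM values were computed by the authors on rat build rn5 with Trim Galore 0.2.5 and Cufflinks 2.2.1, per the submitters' processing notes; the aligner, annotation, strand setting and between-library scaling they used are not given in the sources here. Libraries were matched to columns by the rat number in their titles. A further 1 value column, which repeats HS_DT replicate 3, was not used. The number of reads per library is unknown, so no counting interval is given.

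Values were taken as log2(FPKM + 1), loci averaging under 1 FPKM were dropped, which left 14338, and limma 3.58.1 (limma-trend, R 4.3.3) was fitted in 1 model of the 3 groups (residual df 6, moderated 8.54). The two-sided p-values of a comparison were adjusted over all tested loci (Benjamini-Hochberg), and "called", "rose" and "fell" mean an adjusted p under 0.05. Exact permutation tests of 3 against 3 libraries were added per gene. The fit was tested on simulated data. The labels give 1 rat per library.

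Named genes are the 9 members, up to 4 called genes of each pathway list with the largest change (otherwise the 2 with the smallest unadjusted p), the 2 highest marker genes of each list, and the 2 loci most like each member. Some genes that this rule selects are not reported here. The members and lists were chosen with earlier results of these data known. Upstream sequences are RefSeq's, on another assembly (GRCr8) than the table.

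The alternatives tried were other pseudocounts (0.1 or 0.5 FPKM), other filters (none, or 5 FPKM), median-ratio, quantile and mitochondria-free scaling, robust moderation, weighted libraries, a fit of 2 groups alone, a block for the replicate number, a factor for the rat number series, proximal tubule and macrophage scores (mean log2 value of the markers) as covariates, each library left out in turn, and each rat number series alone.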

Additional observations from a re-analysis of the deposited data

How the results depend on the processing

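Each value of the 9 genes was recomputed in 654 combinations of comparison and alternative. In 619 the direction of a called value and the side of the threshold were kept. In 17 a call ended, in 17 a call was gained and in 1 the sign of a called value turned. Values called in neither fit count among the 619 even where their sign changed. For example, Cybb in HS_DT minus HS_SCR kept its sign in 17 of 25 alternatives, and Nox4 in HS_SCR minus 0.4% salt in 15 of 23. All lost calls were those of Cybb in HS_SCR minus 0.4% salt. With the macrophage score as a covariate Cybb stood at -0.34, and of the named list genes Gclc at 0.0930, Poldip2 at 0.115 and Prdx4 at -0.0673, none called. The score of 0.4% salt (5.68 to 5.99) does not overlap those of HS_SCR (6.77 to 6.83) and HS_DT (6.26 to 6.43), and the cause was not tested. The gap between HS_SCR and HS_DT rests on Cd163 in HS_SCR replicate 3: without Cd163 the scores are 6.11 to 6.41, 6.82 to 7.34 and 6.73 to 6.90. The 2 fits within a rat number series were chosen after seeing the data.

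In HS_SCR minus 0.4% salt, where 1 of the 9 genes and 1874 loci were called, 0 of the 9 genes were called with no filter, median-ratio or quantile scaling, the replicate block, the series as a factor, either marker score, the higher series alone or the 2 groups alone, and 6 with library weights, whose estimation stopped before it converged. Leaving out 1 library gave 0 to 5 genes and 347 to 5188 loci. Loci numbered 3304 with mitochondria-free scaling, 4019 with library weights, 0 with either marker score and 466 with the 2 groups alone.

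In HS_DT minus HS_SCR (0 genes, 1 locus) leaving out 1 library gave 0 to 1 genes and 0 to 2300 loci. Loci numbered 3 with no filter, 154 with a minimum mean of 5 FPKM, 87 with mitochondria-free scaling, 1496 with library weights, 422 with the series as a factor, 51 within the higher series (1 library of each group, the spread taken from 0.4% salt), and 0 with quantile scaling, the replicate block or either marker score. In HS_DT minus 0.4% salt (0 genes, 0 loci) library weights gave 5 genes and 1805 loci, leaving out 1 library 0 to 6 loci, a minimum mean of 5 FPKM 2 loci, the higher series 7 and the 2 groups alone 1. The F test (0 genes, 804 loci) gave 0 to 5 genes and 0 to 3860 loci without 1 library, 5 genes and 3934 loci with library weights, and 535 loci with no filter, 515 with quantile scaling, 1362 with mitochondria-free scaling, 255 within the higher series and 0 with either marker score.

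Nothing in the labels pairs rats by replicate number. Across genes, residuals correlated above 0.1 in 5 of 9 pairs that share a number (from -0.08 to 0.26) and in 2 of 18 that do not (from -0.31 to 0.24). With the replicate block 0 of the 9 genes and 1906 loci were called in HS_SCR minus 0.4% salt, and the limma adjusted p of Cybb was 0.0630. Depth is unknown, so low values such as those of Nox4 carry an unstated counting error.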
